A study of Mus musculus with 16 samples.

Results

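The arrays described here are the 8 of calorie restricted (CR) offspring, out of 16 in the series, divided by pool number. Pools 1 and 2 of both maternal diets (pools 1-2, 4 arrays) were hybridised on the same slide, and pools 3 and 4 of both maternal diets (pools 3-4, 4 arrays) on another. The division follows the sample labels and the slides, but the comparison itself was chosen by the values of Pdk4 and G0s2 on these arrays. The values in it are therefore a description, no gene in it is given a p-value, and a limma threshold serves only to list and count genes. Slide and pool number cannot be told apart.

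The series measured gene expression in tibialis anterior, a predominantly fast-twitch muscle of the lower hind limb, in a mouse model of low birth weight. Offspring came from control dams, which were not food restricted, or from undernourished dams, whose food was cut by 50% in the third gestational week. Offspring of each kind were studied either fed ad libitum (AL) or under CR. RNA was taken from 8 mice per group and pooled in pairs, which gave 4 pools and 4 single-colour Agilent arrays for each of the control AL, undernourished AL, control CR and undernourished CR groups. The 4 CR arrays of each slide hold 2 pools from control dams and 2 from undernourished dams. The AL arrays are divided in the same way over 2 other slides. The labels name no litter, age or sex of the offspring, no degree of CR, and no hour of feeding or of tissue collection. A pool averages 2 mice, so the spread between arrays is a spread between pools. The question put to the data is whether the restricted pools fall into a fed pair and a fasted pair.

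Skeletal muscle moves between glucose and fat as fuel. In fasting, PPAR and FoxO factors, together with glucocorticoid signalling, raise genes that spare glucose and burn fatty acids. Pdk4, pyruvate dehydrogenase kinase 4, blocks the entry of pyruvate into oxidation and is a standard marker of that state. Ucp3, a mitochondrial uncoupling protein, and Angptl4, a secreted inhibitor of lipoprotein lipase, are PPAR targets. Feeding and insulin act through Srebf1, the factor that drives fatty acid synthesis genes. G0s2 encodes an inhibitor of adipose triglyceride lipase and so slows the breakdown of stored fat.

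The promoters of Pdk4, Ucp3 and G0s2 are shown because the values below turn on these genes. Pdk4 and Ucp3 were low on the same control CR arrays on which G0s2 was high. Each sequence runs 5′ to 3′ on the strand of the gene, from 250 bases before to 50 bases after the annotated start, from RefSeq on GRCm38.p6. Capitals mark AGGTCA, the half-site letters of nuclear receptors such as the PPARs, searched as AGGTCA and TGACCT. Pdk4 lies at chr6:5496229-5496528 on the minus strand, Ucp3 at chr7:100472741-100473040 on the plus strand and G0s2 at chr1:193273139-193273438 on the minus strand.
Pdk4: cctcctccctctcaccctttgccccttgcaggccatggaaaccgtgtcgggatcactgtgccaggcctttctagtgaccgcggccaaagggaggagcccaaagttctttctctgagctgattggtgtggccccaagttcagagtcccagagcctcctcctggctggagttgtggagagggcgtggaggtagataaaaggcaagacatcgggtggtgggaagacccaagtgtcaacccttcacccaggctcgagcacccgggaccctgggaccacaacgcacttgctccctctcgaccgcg
Ucp3: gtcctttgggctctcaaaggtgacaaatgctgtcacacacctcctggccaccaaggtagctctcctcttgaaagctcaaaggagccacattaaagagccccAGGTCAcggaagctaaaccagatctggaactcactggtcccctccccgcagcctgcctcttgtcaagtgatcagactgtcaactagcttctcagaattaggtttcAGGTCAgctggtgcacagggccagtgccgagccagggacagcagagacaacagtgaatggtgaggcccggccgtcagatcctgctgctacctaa
G0s2: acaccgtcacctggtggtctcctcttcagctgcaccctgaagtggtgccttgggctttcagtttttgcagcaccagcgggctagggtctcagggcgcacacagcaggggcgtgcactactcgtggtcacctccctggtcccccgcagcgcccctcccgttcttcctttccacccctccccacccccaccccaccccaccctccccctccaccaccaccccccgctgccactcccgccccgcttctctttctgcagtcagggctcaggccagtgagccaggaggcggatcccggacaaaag
The Ucp3 window holds the letters 2 times on the gene's strand, with 99 bases between the matches. The Pdk4 and G0s2 windows do not hold them on either strand. Of 32851 promoter windows of this length, 5340 (16.3%) hold the letters at least once and 588 (1.79%) hold them 2 or more times. A match is a description of letters, and no binding was measured here.

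All values below are log2 signals relative to the 75th percentile of the array. Each array carried 43379 non-control spots, of which 74.3 to 78.5% were well above background on the CR arrays, and none was saturated. The 75th percentile itself was higher on the slide of pools 1-2, with a log2 signal of 9.52 ± 0.12 (SD, n = 4) against 9.21 ± 0.09 (SD, n = 4). The 4 arrays of pools 1-2 lay between 9.43 and 9.70 and those of pools 3-4 between 9.08 and 9.27, without overlap. Local background was 22.4 ± 0.54 against 20.9 ± 0.50 intensity units (SD, n = 4 each), also without overlap. For both measures the two-sided exact permutation p was 0.0286, the smallest that 70 arrangements allow, and 0.257 after Benjamini-Hochberg adjustment over 18 measures. Negative control spots gave 16.1 against 15.2 intensity units (exact permutation p = 0.0571, adjusted 0.343). The 10 E1A positive control spots, labelled targets added at graded amounts, differed by −0.14 to 0.07 on the log2 scale (exact permutation p = 0.457 to 0.886), and their order of brightness was the same in both pool pairs. Before scaling the 2 slides thus did not overlap in brightness. No measure passed after adjustment. With only 2 measures at the smallest possible p, none could pass over 18 measures, so nothing is read from that. After scaling the control targets overlapped throughout. The part of brightness and background in the gene differences was not tested.

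**Figure D1:**
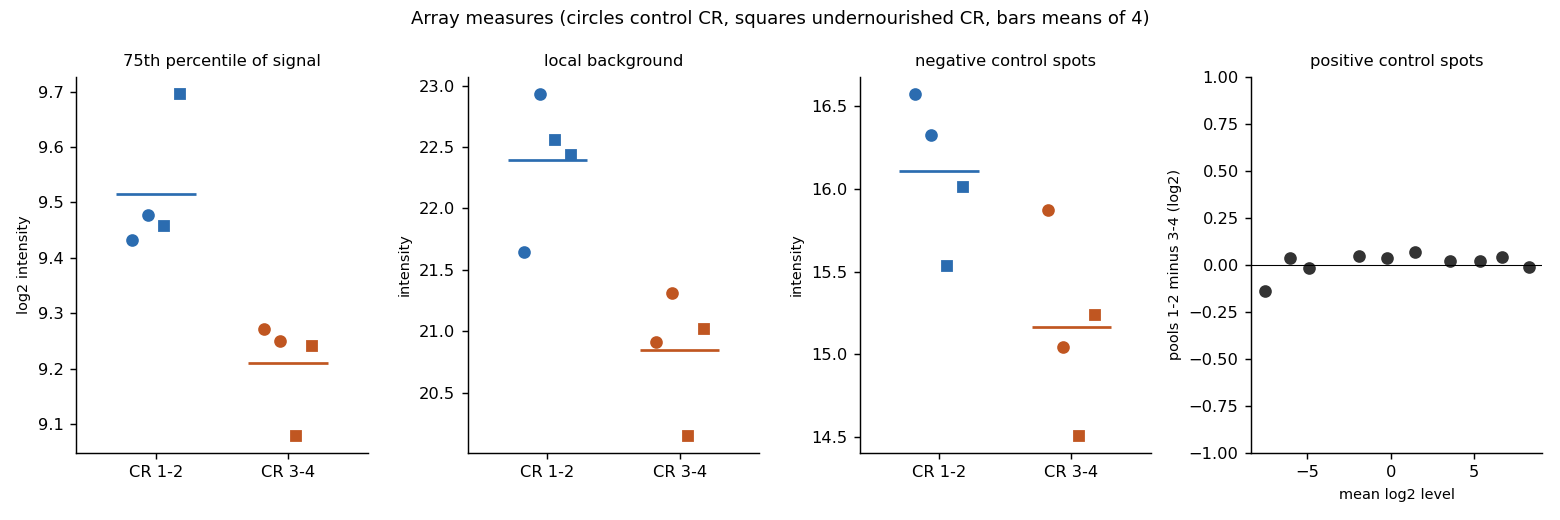
Array measures of the 8 CR arrays. The first 3 panels plot the log2 75th percentile of signal, the local background and the negative control signal (both in intensity units) for pools 1-2 (blue) and pools 3-4 (orange), with circles for control and squares for undernourished arrays and bars for means of 4. The last panel plots the log2 difference of the 10 positive control spots against their level. Percentile and background do not overlap between the slides, and the control spots lie between −0.14 and 0.07.

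The tissue label was borne out by muscle markers. All 17 markers of fast glycolytic fibres had signals well above background throughout the CR arrays. Tnnt3, fast skeletal troponin T, lay between 8.34 and 9.51. Myh7, the slow myosin heavy chain, lay between 5.90 and 7.67. Both overlapped between the pool pairs. Of the 17 fast fibre markers, Myl1 and Tnni2 were lower in pools 1-2 without overlap. Of the 13 slow and oxidative fibre markers, Myh2 and Myl3 were. The differences were −0.27 to −0.24 over the 4 genes. Among all genes 5.1% were lower without overlap.

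Pdk4 did not divide the restricted arrays by pool pair. In control CR it was 3.06 and 3.97 in pools 1 and 2 and 7.29 and 7.03 in pools 3 and 4. In undernourished CR it was 6.07 and 7.36 in pools 1 and 2 and 3.57 and 6.91 in pools 3 and 4. The low arrays were pools 1 and 2 of control dams and pool 3 of undernourished dams, and the other 5 arrays were at 6.07 or above. The difference of pools 1-2 minus pools 3-4 was −3.64 for control dams and 1.47 for undernourished dams, so the sign was opposite. With maternal diet as a block the difference was −1.09 ± 1.12 (SE, n = 4 against 4), and the arrays of the pool pairs overlapped. Pdk4 separated the pool pairs in control CR and not in undernourished CR. The feeding state of the pools was not measured.

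G0s2 showed the reverse order in control CR and little difference in undernourished CR. In control CR it was 3.30 and 3.13 in pools 1 and 2 and 0.83 and 1.46 in pools 3 and 4. In undernourished CR it was 2.90 and 3.10 in pools 1 and 2 and 2.82 in each of pools 3 and 4. Only control pools 3 and 4 stood low, and the other 6 arrays lay between 2.82 and 3.30. Pools 1-2 exceeded pools 3-4 by 2.07 for control dams and by 0.18 for undernourished dams, a difference that turned to −0.15 under normexp background correction. Over both diets it was 1.13 ± 0.37 (SE, n = 4 against 4) with no overlap between the pool pairs. Undernourished pool 3, at 3.57 for Pdk4 and 2.82 for G0s2, was low in the first and high in the second. Undernourished pools 1, 2 and 4 were high in both genes.

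The AL arrays put these levels on a scale. Pdk4 in AL lay between 8.05 and 9.04, above every CR array. G0s2 in AL lay between −2.11 and −0.11, below every CR array. Mean Pdk4 was 3.39 below the AL mean in CR pools 1-2 and 2.30 below it in pools 3-4. Mean G0s2 was 4.29 above the AL mean in CR pools 1-2 and 3.16 above it in pools 3-4. Both pool pairs thus lay on the same side of AL in both genes, and the control CR pools 3 and 4 came nearest to the AL levels of G0s2. These differences share the AL arrays and carry no test, since diet and slide cannot be told apart.

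**Figure D2:**
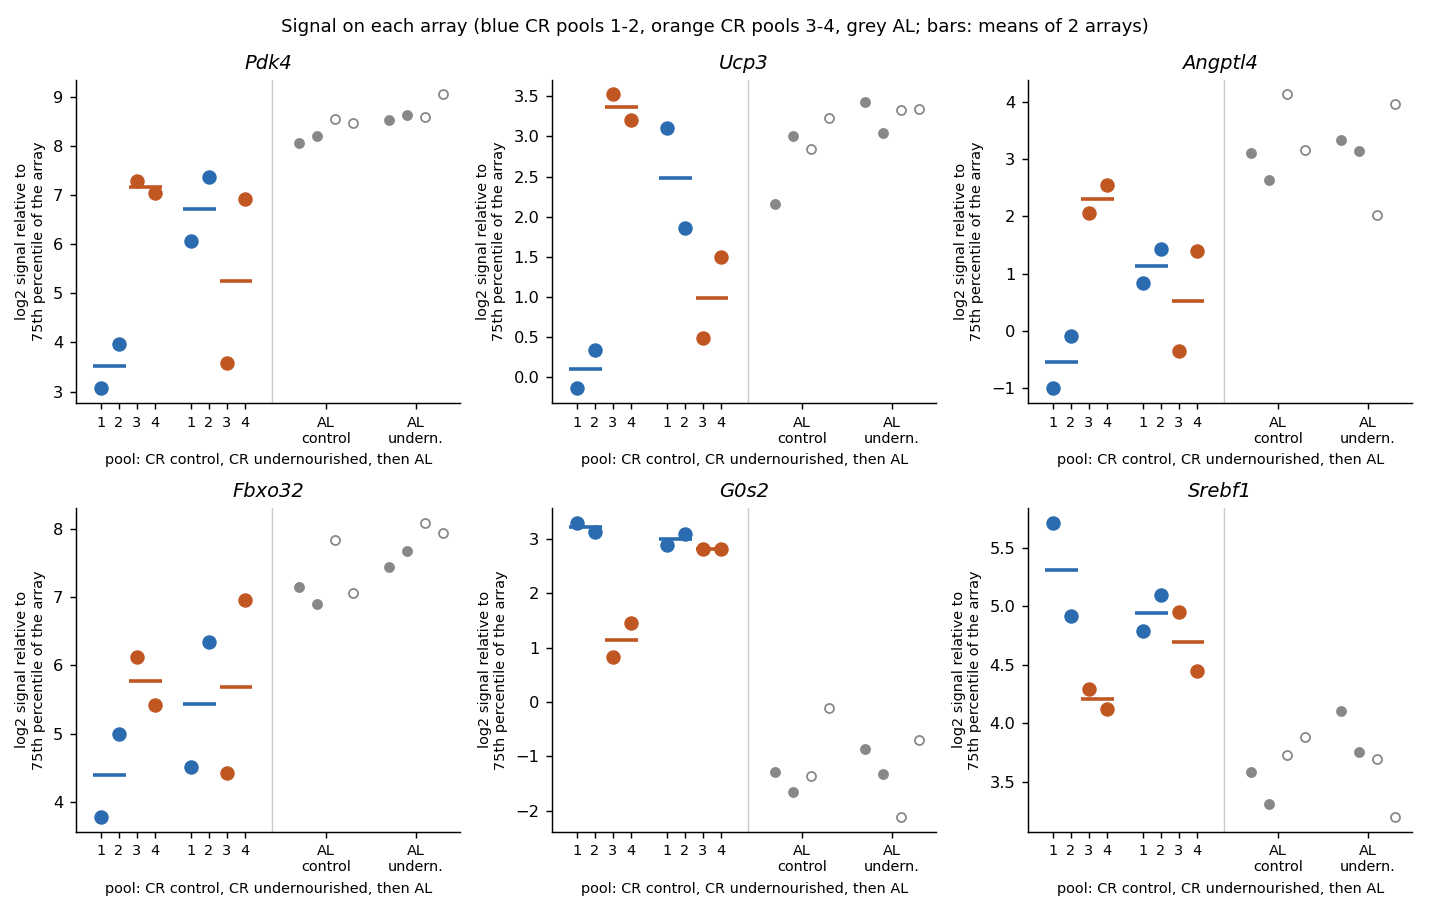
Log2 signal relative to the 75th percentile of the array for Pdk4, Ucp3, Angptl4, Fbxo32, G0s2 and Srebf1, 1 panel each. Blue points are CR pools 1-2, orange points CR pools 3-4 and bars the means of 2 arrays; grey points are AL arrays, filled for pools 1-2 and open for pools 3-4. In control CR the first 4 genes are lower and the last 2 higher in pools 1-2. In undernourished CR the mean bars of Pdk4, Ucp3 and Angptl4 have the opposite order, with overlapping points for Pdk4 and Angptl4.

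Ucp3 had opposite orders in the 2 maternal diets. Control CR pools 1 to 4 had levels of −0.14, 0.34, 3.52 and 3.21. Undernourished CR pools 1 to 4 had 3.11, 1.86, 0.49 and 1.49. Pools 1-2 were the lower pair in control CR by 3.27 and the higher pair in undernourished CR by 1.50, without overlap in either diet. Across the diets the difference was −0.89 ± 0.90 (SE, n = 4 against 4). The difference between the diets in the pool-pair contrast was 4.76 ± 0.67 (SE), with a limma adjusted p of 0.682 over all genes. AL arrays lay between 2.16 and 3.43, a range that held control pool 4 and undernourished pool 1.

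Angptl4 was −1.01, −0.09, 2.05 and 2.55 in control CR pools 1 to 4 and 0.84, 1.43, −0.35 and 1.39 in undernourished CR pools 1 to 4. Pools 1-2 were lower by 2.85 in control CR without overlap, and the undernourished pools overlapped at a difference of 0.62. The mean over all 8 AL arrays was above both CR pool pairs, by 2.89 for pools 1-2 and 1.78 for pools 3-4.

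Of the 28 measured fasting and PPAR target genes, 15 were lower in pools 1-2 of control CR without overlap and 1 was higher. Among all 24239 genes tested in control CR, 22.5% were lower and 18.9% higher without overlap, 2 arrays against 2. The median difference over the list was −0.32, beside −0.01 over all genes. Besides Pdk4, Ucp3 and Angptl4, the lower genes included Cpt1a, the enzyme that admits long-chain fatty acids to mitochondria, with −1.56, −1.51, −0.28 and −0.36 in pools 1 to 4. They also included Plin5, a lipid droplet coat protein of oxidative tissue, with 2.18, 2.84, 3.64 and 3.80. Ppargc1a, a coactivator of mitochondrial biogenesis, was 2.88 and 2.72 in pools 1 and 2 and 4.29 and 3.48 in pools 3 and 4. Creb3l3, a transcription factor of the fasted liver, was −0.77, −0.86, −0.75 and 0.46, so the size of its difference rested on control pool 4. Cpt1a and Plin5, and Acot2 and Hadha in the undernourished pools, were chosen for mention after their values were seen.

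In undernourished CR the same list had 5 genes higher in pools 1-2 without overlap and none lower, where all genes had 12.9% higher and 21.3% lower. The list median was 0.10, beside −0.04 over all genes. The 5 genes included Ucp3, Acot2, a mitochondrial acyl-CoA thioesterase, Slc25a20, the acylcarnitine carrier, and Hadha, a subunit of the trifunctional protein of fatty acid oxidation. Slc25a20 was 2.40, 2.24, 2.23 and 0.96 in undernourished CR, so its size rested on pool 4. No gene of the list separated the pool pairs over both diets together, beside 7.41% of all genes. The control CR lists and the Pdk4 values that led to this comparison come from the same arrays, so nothing is read from their agreement.

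FoxO targets and atrophy genes were arranged similarly in control CR, with 11 of 28 lower and 1 higher and a median of −0.20. In undernourished CR 1 was lower and 1 higher, with a median of 0.04. Such counts stand beside the shares over all genes without overlap. These were 22.5% lower and 18.9% higher in control CR, and 21.3% lower and 12.9% higher in undernourished CR. Fbxo32, the muscle ubiquitin ligase atrogin-1, was 3.78, 5.0, 6.12 and 5.42 in control CR pools 1 to 4. It was 4.52, 6.34, 4.42 and 6.96 in undernourished CR, where pools 2 and 4 were the high ones and came from different slides. Trim63, the ligase MuRF1, had the same 2 high arrays in undernourished CR, with 5.87, 7.41, 5.64 and 6.89. Its control CR values were 5.22, 5.74, 6.90 and 6.13. Sesn1, a stress-induced inhibitor of mTORC1, was 5.40 in undernourished pool 2 and 5.64 in undernourished pool 4, and 3.02 to 3.96 on the other 6 arrays. Mt1, a metallothionein induced by glucocorticoids and metals, was 4.19 and 5.31 in those same 2 pools and 1.30 to 2.64 elsewhere. Undernourished CR thus held a pair of arrays apart in these 4 genes, but that pair crossed the slides.

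Amino acid stress genes showed no common direction. Of 22 measured ATF4 and amino acid stress genes, 3 were higher and 4 lower in control CR, and 2 were higher and 2 lower in undernourished CR. Chac1, a glutathione-degrading enzyme induced by ATF4, was 3.58 and 3.37 in control pools 1 and 2 and 5.79 and 5.26 in control pools 3 and 4. In undernourished CR it was 5.08 and 5.45 against 3.79 and 5.19, with overlap. Slc38a2, an amino acid transporter raised in amino acid scarcity, was 3.98, 4.04, 5.53 and 5.07 in control CR. It was 4.20, 3.90, 4.11 and 4.87 in undernourished CR, and −0.87 ± 0.24 (SE, n = 4 against 4) over both diets with overlap.

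Among lipid synthesis genes without overlap in control CR, more were higher than lower in pools 1-2. Of 24 fatty acid synthesis and storage genes 8 were higher and 2 lower in pools 1-2, with a median of 0.11, and of 23 cholesterol and SREBP2 genes 9 were higher and 3 lower, with a median of 0.10. In undernourished CR the counts were 2 higher and 1 lower, and 2 higher and 2 lower, with medians of 0.17 and 0.05. Srebf1 was 5.71 and 4.91 in control pools 1 and 2 and 4.29 and 4.12 in control pools 3 and 4. It was 4.79, 5.10, 4.95 and 4.45 in undernourished CR pools 1 to 4, and the AL arrays lay between 3.20 and 4.11. Every CR array was thus above the AL range, and the control pools 3 and 4 were the lowest of them. Sqle, squalene epoxidase, was −1.81, −2.37, −3.33 and −3.31 in control CR, while undernourished CR had −2.74, −1.44, −2.05 and −3.50. Undernourished pool 4 was the lowest of all 8 arrays.

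Circadian genes also follow feeding time. Of 22 measured clock genes, 10 were higher and 2 lower in pools 1-2 of control CR, with a median of 0.12, against 2 and 2 in undernourished CR, with a median of −0.01. Nr1d1, the REV-ERBα repressor, was 1.02, 1.56, 0.06 and 0.19 in control CR, beside 0.97, 1.86, 1.39 and 2.04 in the undernourished pools. Only control pools 3 and 4 were low. Nfil3, a repressor active in antiphase to the D-box activators of the clock, was 2.94, 2.84, 4.30 and 3.83 in control CR, while undernourished CR had 2.79, 2.74, 1.91 and 3.90. Irs1, the insulin receptor substrate, was 4.42, 4.39, 5.24 and 4.99 in control CR, beside 4.65, 3.88, 4.15 and 3.99 in the undernourished pools. Of 34 insulin signalling genes 8 were higher and 9 lower in control CR, and 4 higher and 6 lower in undernourished CR. For this and the clock list, the shares over all genes were 18.9% higher and 22.5% lower in control CR. They were 12.9% and 21.3% in undernourished CR. Grb14, an inhibitor of the insulin receptor, was the gene of that list whose pool pairs did not overlap over both diets, at −0.45 ± 0.14 (SE, n = 4 against 4).

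**Figure D3:**
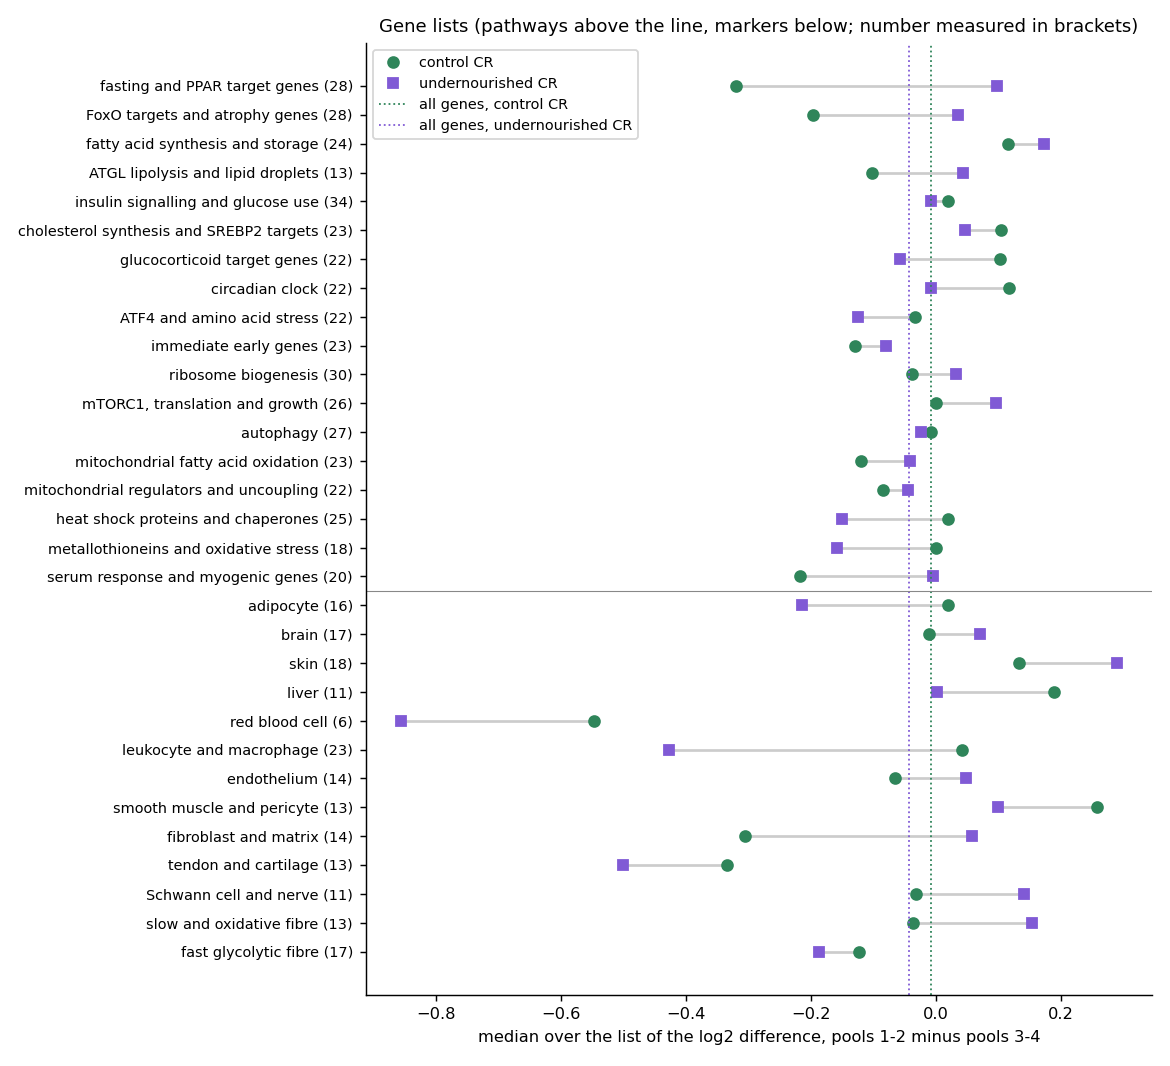
Median over each gene list of the log2 difference, CR pools 1-2 minus pools 3-4, in control CR (green circles) and undernourished CR (purple squares), 2 arrays against 2, with the median over all genes dotted. Pathway lists are above the line and cell type markers below it, with the number of genes measured in brackets. The fasting list lies at −0.32 for control dams and at 0.10 for undernourished dams, and the red blood cell and tendon lists are negative in both.

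The other pathway lists had medians between −0.22 and 0.10 in either diet. Serum response and myogenic genes had 9 of 20 lower and 1 higher in control CR, with a median of −0.22, and 5 of each in undernourished CR. Of 23 immediate early genes 9 were lower and 3 higher in control CR, with 2 and 3 in undernourished CR. Of 22 glucocorticoid target genes 4 were higher and 4 lower in control CR, and 1 was lower in undernourished CR. Of 23 genes of mitochondrial fatty acid oxidation 7 were lower and none higher in control CR, while 4 were higher and none lower in undernourished CR. Beside these counts, 22.5% of all genes were lower and 18.9% higher in control CR. In undernourished CR the shares were 21.3% lower and 12.9% higher. None of the 396 genes of the 18 pathway lists passed an adjusted p of 0.05 over both diets together, beside 1.35% of all genes. With all genes split into 4 classes by mean signal, that share was 3.13% in the dimmest and 0% in the brightest. The lists were not matched for signal, so nothing is read from their count.

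Markers of other cell types were measured beside these differences. Of 13 tendon and cartilage markers, 2 were lower in pools 1-2 without overlap, beside 5.1% of all genes. They were Tnmd, a tendon membrane protein, at −1.13 ± 0.29 and Comp, a matrix protein of tendon, at −1.0 ± 0.36 (SE, n = 4 against 4 each). The list median was −0.42, and the summed linear level of the list was 31.1 to 46.1 times the 75th percentile in pools 1-2 and 38.4 to 62.6 in pools 3-4. The summed level of the 6 red blood cell markers was 113 to 139 in pools 1-2 and 137 to 395 in pools 3-4, with a list median of −0.70. Hba-a1, a haemoglobin subunit, reached 6.94 in undernourished pool 4 and lay between 5.20 and 6.31 elsewhere. Epb42 of the red cell list was above background on no CR array.

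The 23 leukocyte and macrophage markers had a summed level of 8.77 to 10.52 in pools 1-2 and 8.12 to 19.7 in pools 3-4. In undernourished CR 13 of them were lower in pools 1-2 and 1 higher, against 4 and 3 in control CR, with medians of −0.43 and 0.04. Among all genes 21.3% were lower and 12.9% higher in undernourished CR, and 22.5% and 18.9% in control CR. S100a8, a granulocyte calcium-binding protein, was 2.08 in undernourished pool 4 and −5.64 to −0.78 on the other 7 arrays. Of 13 smooth muscle and pericyte markers 8 were higher and 1 lower in control CR, and their summed level was 478 to 591 in pools 1-2 and 405 to 583 in pools 3-4. Skin markers summed to 54.5 to 68.0 and 57.7 to 78.2, and Lor, the cornified envelope protein loricrin, was 1.01 in undernourished pool 2 and −4.55 to −4.06 in the other undernourished pools. Brain markers summed to 31.7 to 39.5 and 28.1 to 31.1, and Gad1, Gad2, Gria1 and Neurod6 were above background on no CR array. None of the 185 marker genes passed an adjusted p of 0.05, beside 1.35% of all genes, a share not matched for signal. In whole muscle, fewer cells of a type and less RNA per cell cannot be told apart, and the part of these markers in the pathway differences was not tested.

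Over all genes, the pool pairs differed in dim genes far more often than in bright ones. With maternal diet as a block, 328 of 24239 genes (1.35%) passed an adjusted p of 0.05 in limma, 37 higher (0.153%) and 291 lower (1.2%) in pools 1-2. Without a model, 560 genes were higher (2.31%) and 1237 lower (5.1%) in pools 1-2 with no overlap between the 8 arrays. These counts describe the contrast that was chosen and are not evidence for it. The 328 genes differed by 0.52 to 2.96 in absolute value, with a median of 1.03 beside 0.13 over all genes. Their median level was −4.70, beside −1.77 over all genes. With genes split into 4 classes of equal size by mean signal, the dimmest class held 190 of them (3.13% of 6061) and the next 126 (2.08% of 6059). The third class held 12 (0.198%) and the brightest none. Of the 328, 238 were well above background on all 8 arrays, 16 on no array of pools 1-2 and 3 on no array of pools 3-4. Those 16 and 3 genes passed the filter only through the other pool pair.

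The count changed when single arrays were left out. It was 10 without control pool 1, 94 without control pool 2, 8 without control pool 3, 6 without control pool 4, 75 without undernourished pool 1, 185 without undernourished pool 2, 96 without undernourished pool 3 and 304 without undernourished pool 4. It was 0 within either maternal diet alone, 82 with the pool number as a block, 0 with normexp background correction and 631 with local background subtracted and no convolution fit, of which 612 were lower. At a limma unadjusted p under 0.05 there were 2403 genes with all 8 arrays and 1946 to 3372 with 1 array left out. Those fits also have fewer arrays, and the part of that in the lower counts was not tested.

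**Figure D4:**
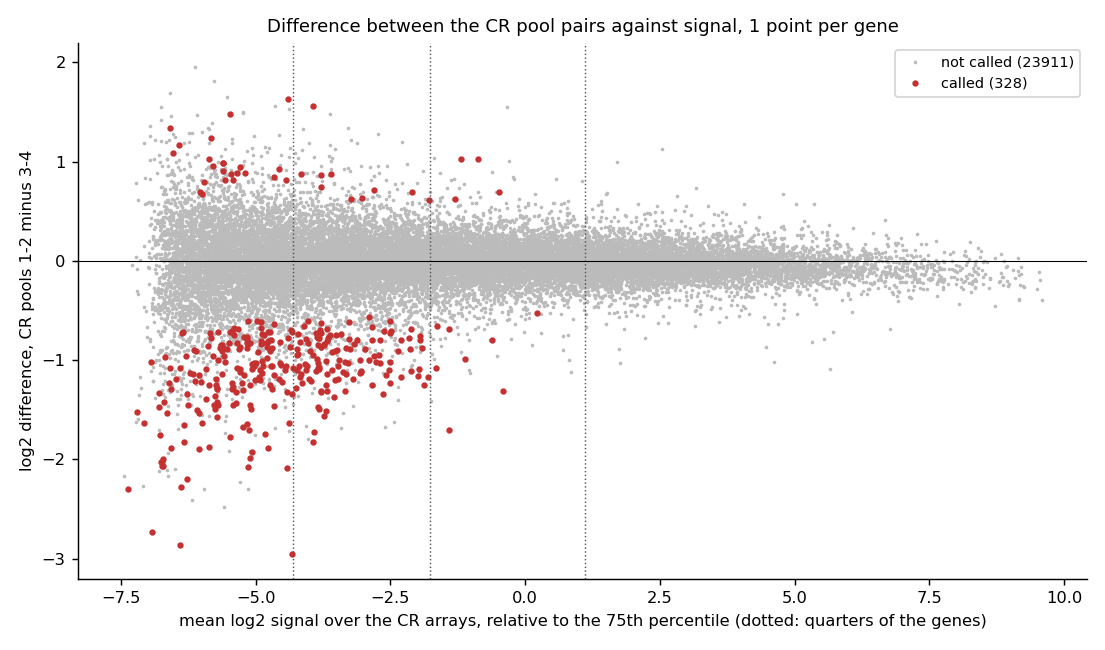
Log2 difference of CR pools 1-2 minus pools 3-4 against the mean log2 signal of the gene over the 8 CR arrays, 1 point per gene, with the 328 genes past an adjusted p of 0.05 in red and dotted lines between 4 classes of signal of equal size. The red points lie at low signal and mostly below 0, and there are none in the brightest class.

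The lower genes with the largest differences are mostly known from tissues other than muscle. Cabp5, a calcium-binding protein of the retina, was −5.93, −5.17, −2.53 and −2.39 in control CR pools 1 to 4 and −6.16, −5.95, −2.73 and −3.73 in undernourished CR, a difference of −2.96 ± 0.25 (SE, n = 4 against 4). Its level in pools 3-4 was nearer to the AL arrays, which lay between −5.05 and −2.36. Hnf4a, a nuclear receptor of liver, gut and kidney, was −5.77, −4.31, −3.43 and −3.19 in control CR, while undernourished CR had −6.53, −5.23, −3.22 and −3.65. Glp1r, the receptor of the incretin GLP-1, differed by −2.08 ± 0.22, with −6.41, −5.97, −4.14 and −3.93 in control CR, beside −6.67, −5.70, −4.10 and −4.28 in the undernourished pools. These genes were chosen for having no overlap between the pool pairs and the same sign in both diets, so that pattern is part of the rule.

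For some of these genes pools 1-2 gave no level well above background, so the difference is a bound. Olfr435 and Olfr111, olfactory receptors, were at least 5.02-fold and 3.65-fold brighter in pools 3-4. Slc12a1, the sodium-potassium-chloride cotransporter of the kidney, was at least 3.67-fold brighter. Gpr26, an orphan receptor of the brain, was at least 3.03-fold brighter. These bounds set the mean of the bright pair against the lowest signals counted as well above background, and they hold for the processed signal only. Olfr435, Olfr111, Slc12a1 and Gpr26 passed the filter only through pools 3-4, where they are high. Their place among the lower genes thus follows in part from the filter. Umod, the kidney protein uromodulin, had −7.92, −7.57, −5.65 and −5.44 in control CR and was well above background on 1 of the 4 arrays of pools 1-2. The remaining lower genes named were Olfr775 at −1.98 ± 0.14, Tas2r118, a bitter taste receptor, at −1.83 ± 0.30, Defb34, a defensin, at −1.77 ± 0.12 and Olfr705 at −1.93 ± 0.29, the last above background on 3 of the 4 arrays of pools 1-2. Among 548 olfactory, taste and related chemosensory receptor genes measured, 40 were lower and 5 higher (8.21%), beside 1.35% of all genes. This group was formed after the values were seen. Its median level was −4.89, within the dimmest class, of which 3.13% passed the threshold.

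The higher genes differed less. Tspan32, a tetraspanin of blood cells, was −0.40, −0.16, −1.42 and −1.08 in control CR, while undernourished CR had −0.57, −0.32, −1.41 and −1.65, a difference of 1.03 ± 0.13 (SE, n = 4 against 4). Sstr4, a somatostatin receptor, was −0.57, −0.74, −1.81 and −2.06 in control CR, beside −0.77, −0.62, −1.57 and −1.34 in the undernourished pools. Zfp689, a zinc finger protein, differed by 0.69 ± 0.10 and Abcb11, the bile salt export pump, by 0.81 ± 0.11. These 4 kept their direction when local background was subtracted, as did Nexmif at 0.03. The other 7 of the 12 named reversed under both background corrections of the median signal: Amn, Olfr482, Olfr424, Olfr1044, Olfr617, Slc38a8 and Abcg5. Amn, a kidney and gut membrane protein, was at least 2.06-fold brighter in pools 1-2 with the processed signal, and its difference was −0.10 after subtraction. Amn passed the filter only through pools 1-2.

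**Figure D5:**
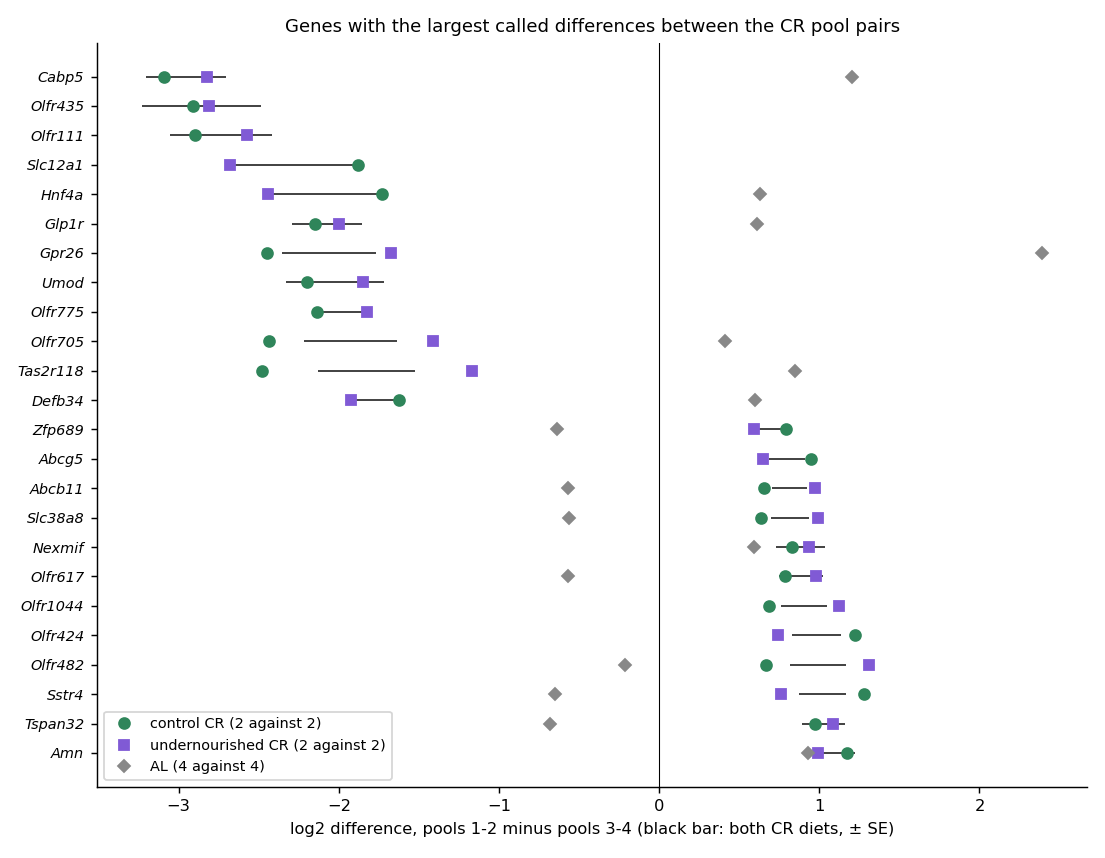
Log2 difference, pools 1-2 minus pools 3-4, for the 24 genes with the largest differences in either direction among those past an adjusted p of 0.05 in CR. Green circles are control CR and purple squares undernourished CR (2 arrays against 2), black bars the estimate over both diets with its SE, and grey diamonds the AL arrays (4 against 4) where the gene was tested. Genes were taken only where the 8 CR arrays did not overlap and both diets had the same sign, so the circles and squares share a side of 0 by choice, and most AL diamonds lie on the other side.

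The AL arrays, divided in the same way over 2 other slides, allow a test of the same contrast. Only genes kept on the CR arrays were tested, so genes bright in AL alone are left out. In AL, 894 of 21737 genes (4.11%) passed an adjusted p of 0.05 in limma, of which 570 (2.62%) were higher and 324 (1.49%) lower in pools 1-2. With the pool number as a block the count was 380. Under quantile normalization 552 were higher and 501 lower, and with local background subtracted 436 were higher and 84 lower. Of the 328 genes listed in CR, 249 were tested in AL, and 66 of those had the same sign there. Of the 249, 16 passed the test in AL, and 1 of the 16 had the same direction. The 66 genes were 26.5% of those tested, beside 52.3% of all 21737 genes. The agreement of signs was not tested, and slide and pool number cannot be told apart in AL either.

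Pdk4 in AL was 8.05, 8.19, 8.54 and 8.45 in control pools 1 to 4 and 8.53, 8.63, 8.57 and 9.04 in undernourished pools 1 to 4. The difference of −0.30 ± 0.14 (SE) gave a limma adjusted p of 0.243. G0s2 in AL was −1.29, −1.66, −1.36 and −0.11 in control pools 1 to 4 and −0.87, −1.33, −2.11 and −0.70 in undernourished pools 1 to 4, a difference of −0.22 ± 0.40 (SE, adjusted p = 0.795 in limma). Neither passed the test, nor did Ucp3 at −0.27 ± 0.21 (adjusted p = 0.495), Angptl4 at −0.27 ± 0.44 (0.767) or Fbxo32 at −0.44 ± 0.18 (0.199). The spread of Pdk4 over the 8 AL arrays was 0.995 from lowest to highest, and over the 8 CR arrays 4.30.

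Gpr26 differed between the AL pool pairs in the direction opposite to CR. It was −1.91, −2.32, −4.80 and −4.94 in control AL pools 1 to 4 and −4.67, −4.59, −6.39 and −6.92 in undernourished AL pools 1 to 4, higher in pools 1-2 by 2.39 ± 0.20 (SE, limma adjusted p = 0.024). Mex3a, an RNA-binding protein, rose by 2.07 ± 0.21 (adjusted p = 0.0295). Avpr1b, the pituitary vasopressin receptor, fell by 1.76 ± 0.16 and Olfr1394 fell by 1.48 ± 0.14 (adjusted p = 0.024 for each). Hnf4a rose by 0.63 ± 0.13 (adjusted p = 0.0444) and Sstr4 fell by 0.65 ± 0.14 (adjusted p = 0.0466), both against their CR order. With the pool number as a block these adjusted p were 0.0707 and 0.0771, and those of Gpr26, Mex3a, Avpr1b and Olfr1394 were 0.0473. That fit takes the spread between pool numbers out of the error, so its p-values do not allow for a pairing of the pools. Cabp5, at 1.21 ± 0.38, did not pass (adjusted p = 0.105).

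Some brain markers were higher in AL pools 1-2. Of 17 tested, 4 passed as higher and none as lower, beside 2.62% and 1.49% of all genes tested in AL. Among the 4 were Nrgn by 2.23 ± 0.49, Slc1a3 by 1.71 ± 0.38 and Map2 by 1.69 ± 0.31 (SE, limma adjusted p = 0.0402 to 0.0488), genes of neurons and astrocytes. With the pool number as a block the adjusted p was 0.0473 for Nrgn and Map2 and 0.0556 for Slc1a3. Their naming followed from their values. Another 13 markers of the list were not kept on the CR arrays and so were not tested. The summed level of the list was 30.3 to 174 in AL pools 1-2 and 17.6 to 36.9 in AL pools 3-4, with overlap, against 28.1 to 39.5 over all CR arrays. The median log2 level of the 29 brain markers on the array was −2.34 to 1.12 over the AL arrays and −5.78 to −5.20 over the CR arrays. With that median as a covariate no AL gene passed, and 1589 had an unadjusted p under 0.05. The covariate was 1.12, 0.68, −0.67 and −1.17 in control AL pools 1 to 4, so there it followed the pool pair. In undernourished AL pools 1 to 4 it was −0.62, −1.13, −1.13 and −2.34, with pools 2 and 3 alike. Undernourished pools 1 and 2 were thus near control pools 3 and 4. That fit cannot tell the covariate and the pool pair of control AL apart. In it Gpr26, Mex3a, Avpr1b and Olfr1394 differed by 1.72, 2.17, −1.99 and −1.54, and Nrgn, Slc1a3 and Map2 by 0.19, 0.15 and 0.46. The part of brain RNA in the AL differences was not tested. Without control AL pool 1, 2 or 4, or undernourished pool 1, the AL count was 0, without control pool 3 it was 2, without undernourished pool 4 it was 1, and without undernourished pool 3 it was 1380. Of the fasting list, 27 genes were tested in AL and 1 passed, beside 4.11% of all genes, so nothing is read from that count. It was Ppard, a fatty acid-sensing nuclear receptor, which fell by 1.0 ± 0.17 (limma adjusted p = 0.0379, or 0.0503 with the pool number as a block). Ppard was named after its value was seen.

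The difference between maternal diets in the pool-pair contrast was tested by an interaction term. In limma no gene passed an adjusted p of 0.05 (0.0%), with a smallest value of 0.608, and 1068 of 24239 genes (4.41%) had an unadjusted p under 0.05. The genes with the smallest p included Padi3 and Padi4, enzymes that convert arginine to citrulline. Padi4, which is abundant in neutrophils, was −3.19, −4.37, −0.34 and −1.61 in control CR, while undernourished CR had −0.95, 0.14, −4.17 and −4.09, an interaction of 6.54 ± 0.80 (SE, adjusted p = 0.639). Its 4 high arrays were control pools 3 and 4 and undernourished pools 1 and 2. Padi3 was −3.68, −3.90, −2.44 and −2.32 in control CR, beside −2.83, −3.04, −3.68 and −3.67 in the undernourished pools (2.15 ± 0.23, adjusted p = 0.608). Trem2, a receptor of myeloid cells, had the reverse order, with −2.42, −2.25, −3.21 and −2.90 in control CR, while undernourished CR had −3.41, −3.11, −1.89 and −2.35. For Pdk4 the interaction was 5.11 ± 1.41 (SE), given as a description.

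The pool pair also served as a block for maternal diet within CR. In limma no gene passed an adjusted p of 0.05 (0.0%), with a smallest value of 0.0754, and 1193 of 24239 genes (4.92%) had an unadjusted p under 0.05. Pebp4, a phosphatidylethanolamine-binding protein, was −6.86, −6.48, −6.58 and −6.90 in control CR, beside −5.66, −5.41, −5.09 and −5.35 in the undernourished pools, 1.33 ± 0.16 (SE) higher in the latter (adjusted p = 0.221). It was well above background on 5 of the 8 arrays. Apobec1, a cytidine deaminase, was −3.03 to −2.77 in control CR and −2.35 to −2.19 in undernourished CR, 0.60 ± 0.11 higher (adjusted p = 0.965). Aurka, a mitotic kinase, was 1.79 to 2.52 in control CR and 0.69 to 1.36 in undernourished CR, a difference of −1.11 ± 0.20 (adjusted p = 0.965). None of these 3 genes overlapped between the maternal diets, and none passed the test over all genes.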

How the data were processed

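Total RNA of tibialis anterior pools was labelled with Cy3 and hybridised to Agilent 1-colour arrays, 1 array for each of 16 pools. The deposited scanner files give the processed signal as an intensity in which the authors' software, Agilent Feature Extraction 10.5.1.1, had subtracted background and removed spatial trend, per the file headers (the version also stands in the submitters' processing notes). The same deposited files hold the flags for spots above background, outliers and control type. A deposited table holds the authors' log2 values. Every probe in it has a median of 0 over the 16 arrays, and the column medians lie between −0.10 and 0.04. No source used here gives its scaling between arrays.

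Spots of a probe were averaged without control spots and outlier spots. The log2 processed signal minus the 75th percentile of each array was tested with limma 3.58.1 in R 4.3.3, with Benjamini-Hochberg adjustment over all genes tested. A gene was kept if well above background on at least 4 of the 8 CR arrays, and the probe brightest on the CR arrays stood for it. The AL fit took those kept genes that were also well above background on at least 4 of the 8 AL arrays. Of 41174 probes, 24844 matched 17178 RefSeq symbols, and 16330 keep the file's name. The procedure was checked on simulated data. Maternal diet was a block in the pool-pair fits, and pool pair was a block in the maternal fit. Same-numbered arrays were compared by the correlation of their deviations from the group means. In AL these were 0.35, 0.12, 0.12 and 0.39. Control AL pools 2 and 3 correlated better with undernourished AL pools 1 and 4 of their slides, at 0.20 and 0.18. A pairing of the AL arrays by number is therefore not shown. P-values measure the spread between pools, except in fits with the pool number as a block. There the spread between numbers is taken out of the error, so those p-values do not allow for a pairing.

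Genes were named by rule: Pdk4 and G0s2, the 12 largest differences in either direction among genes past the threshold whose arrays do not overlap, up to 4 of each list by absolute difference, and the 5 smallest p in each direction of the other fits. Acot2, Cpt1a, Hadha, Map2, Myh2, Myl3, Nrgn, Plin5, Ppard and Slc1a3 were named outside the rule, after their values were seen. The comparison, its genes and the lists were chosen with earlier results of these data known. Alternatives were quantile normalization, the authors' values, other filters, probes and blocks, single arrays left out, and normexp with an offset of 50. The mean signal was not in the files used here, so normexp took the median signal. A subtraction of local background was added after the data were seen. Values of a few genes are not reported here.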

Additional observations from a re-analysis of the deposited data

Results flagged for a closer look

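Among 194 groups of 4 CR arrays examined over the genes named in the text, 12 held an array whose gap to the nearest of the others exceeded Dixon's limit, as a share of the range. Chance alone gives such a gap in about 1 in 20 groups. In undernourished CR pool 4, 6 genes stood apart. S100a8 was 2.08 against −5.64 to −5.02 in the other 3 pools, Hba-a1 was 6.94 against 5.38 to 5.63 and Aacs, an acetoacetate-activating enzyme, was 2.33 against 0.45 to 0.61. Slc25a20 was 0.96 against 2.23 to 2.40, Hadha was 1.54 against 2.06 to 2.13 and the fibrinogen gene Fgg was −6.97 against −6.11 to −6.02, all log2 relative to the 75th percentile.

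In undernourished CR pool 2 the epidermal genes Lor and Krt15 were 1.01 against −4.55 to −4.06 and −1.20 against −6.83 to −6.30. In undernourished CR pool 3 the smooth muscle myosin gene Myh11 was 0.86 against 1.24 to 1.30, and Avpr1b was −5.31 against −4.75 to −4.67. In control CR, Aacs was 1.53 in pool 3 against 0.28 to 0.34, and Creb3l3 was 0.46 in pool 4 against −0.86 to −0.75.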

How the results depend on the processing

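The count of genes that differed between the CR pool pairs, 328 as reported, was 0 with normexp background correction, 631 with plain background subtraction, 82 with the replicate block, 6 to 304 with 1 array left out, and 0 within control CR or undernourished CR alone (2476 and 1452 at an unadjusted p under 0.05). Under normexp 7 genes had an unadjusted p under 0.05. Its fitted background mean was −895 on control CR pool 4 and −591 on undernourished CR pool 1, against −54.5 to 1.72 on the other arrays. Quantile normalization, the authors' values, 4 other filters or probe choices, the fit over 16 arrays and the fit without the maternal block gave 227 to 397. In CR the correlations between same-numbered arrays were 0.23, 0.12, 0.02 and 0.07, so the numbers do not pair these arrays, and pools 3 and 4 each correlated better with the other number (0.15 and 0.17). No gene of the pathway lists passed under the settings run except with 1 array left out, 0 to 1 genes: Nfil3 without undernourished CR pool 3 and 1 other gene without undernourished CR pool 4.

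The AL count of 894 was 204 with normexp, 520 with subtraction, 0 without the filter on dim probes (5829 at an unadjusted p under 0.05), 287 with the filter taken over 16 arrays, 2455 with all 16 arrays in 1 fit, 380 with the replicate block, 1354 in control AL alone, 0 in undernourished AL alone, 0 with the brain marker covariate and 0 to 1380 with 1 array left out. Higher and lower calls were 552 and 501 under quantile normalization, 468 and 271 in the authors' values, 172 and 32 under normexp and 436 and 84 under subtraction. The interaction gave 0 to 1 genes with 1 array left out, and maternal diet gave 1 with all 16 arrays in 1 fit. The cause of these differences was not tested.

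The G0s2 difference in undernourished CR was −0.15 under normexp, and its distance of CR pools 1-2 from AL was 3.63 under normexp, 3.85 under subtraction and 4.49 in the authors' values. Reversed differences were, under normexp and subtraction in turn, −0.045 and −0.10 for Amn, −0.025 and −0.11 for Olfr482, −0.028 and −0.090 for Olfr424, −0.0068 and −0.063 for Olfr1044, −0.0023 and −0.064 for Olfr617, −0.0070 and −0.052 for Slc38a8 and −0.060 and −0.12 for Abcg5. Of 651 list medians over all settings 648 moved by less than their spread, and of 3759 values of named genes 3548 did, with 14 reversed. Of the 328 genes, 316 lay below the median signal.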
